A study of Mus musculus with 12 samples.

Results

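The 42 genes described here encode the machinery with which a cell moves proteins such as collagen into the endoplasmic reticulum (ER), folds them there, and ships them out, together with the sensors and transcription factors of ER stress. They were taken by gene symbol from the deposited count table of 40760 genes, and the rule used no expression value. All 42 passed the filter of edgeR on low counts, which left 17418 genes to test. They comprised 9 lumenal chaperones and cofactors, 7 lectin chaperones, disulfide isomerases and prolyl isomerase, 4 genes of ER-associated degradation, 9 stress sensors and transcription factors, 7 genes of translocation into the ER, and 6 genes of ER exit and retrieval. The study asked how loss of Pear1, which encodes a receptor of the cell surface, alters mouse lung mesenchymal cells in bleomycin (bleo) induced pulmonary fibrosis. Cells positive for Cd140a, the protein encoded by Pdgfra, were sorted from the lungs of male mice, and bulk RNA-seq was made of 12 libraries in 4 groups of 3. Wild-type (WT) and Pear1-/- mice were each given vehicle or bleo. The study's methods describe C57BL/6 mice of 8 to 12 weeks that received bleo as an aerosol into the trachea, but which of the model's doses and days applied to these libraries, and how many mice stood behind each, was not given in the sources used here. The Pear1-/- mice carried a knockout-first allele in all cells of the body, in which a cassette in an intron interrupts the gene, so that no group isolates the loss of Pear1 in fibroblasts.

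Secreted proteins enter the ER through the Sec61 channel, are helped through it by the TRAP complex, and fold with the aid of chaperones of the Hsp70 and Hsp90 families, lectin chaperones that hold glycoproteins, and isomerases that form disulfide bonds or turn proline bonds. Procollagen depends in particular on prolyl hydroxylation and on COPII coats that can enclose a large cargo, and fibroblasts that lay down matrix are known for a large secretory pathway. When unfolded protein builds up, the sensors Ire1 (encoded by Ern1), Perk (encoded by Eif2ak3) and Atf6 switch on the unfolded protein response, in which the factors Xbp1, Atf4 and the cleaved form of Atf6 raise the transcription of chaperones and of degradation genes.

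Each library held between 6702948 and 10447101 counted reads, and a floor of 3 counts corresponded to between 0.287 and 0.448 CPM, which covers counting error only. Pear1 itself had 576, 545 and 519 normalized counts in WT vehicle and 511, 501 and 547 in Pear1-/- vehicle. The log2 fold change was -0.08 (adjusted p = 0.47). After bleo it had 256, 239 and 266 in WT and 355, 372 and 344 in Pear1-/-, and was higher in Pear1-/-, by 0.48 (adjusted p = 0.00012). The cassette was designed to truncate the transcript, yet Pear1 was not called lower in Pear1-/- with vehicle or with bleo. The count of a whole gene also includes exons before the cassette. The allele and the labels were not tested, so that Pear1-/- below means the libraries labelled so. WT vehicle replicate 2 stood apart from its group. A chi-square of the gene counts, divided by its degrees of freedom so that pure sampling gives 1, was 25.2 and 26.0 between it and replicates 1 and 3, but 1.68 between those, and it was highest of the WT vehicle libraries in 33 of the 42 genes. Pear1-/- vehicle replicate 3 stood apart to a lesser degree, at 4.86 and 5.46 against replicates 1 and 2, which were at 1.48. All pairs within the bleo groups lay between 1.37 and 1.51, so that replicates there differed little beyond sampling. Pdgfra, the marker of the sort, had 4802, 4195 and 4698 normalized counts in WT vehicle, 4166, 4203 and 4125 in Pear1-/- vehicle, 1348, 1338 and 1394 in WT bleo and 2403, 2369.9 and 2402 in Pear1-/- bleo. Markers of other cells were present in every sorted library. The summed counts of 14 leukocyte markers made up between 0.631% and 0.651% of all counts in WT vehicle, between 0.632% and 0.689% in Pear1-/- vehicle, between 2.98% and 3.08% after bleo in WT and between 1.29% and 1.32% after bleo in Pear1-/-. The summed counts of 10 plasma cell markers were between 1.02% and 1.63%, between 1.52% and 1.88%, between 0.126% and 0.134% and between 0.84% and 0.869% in the same order. Jchain alone made up between 77.1% and 96.5% of the plasma cell sum in each library, so that this sum is mainly its level. None of these markers was at 0 in any library. In bulk libraries a change in the number of cells of a type cannot be told apart from a change in RNA per cell, and the p-values below measure the spread between these libraries, which may be technical.

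Several of the genes carry known binding motifs of the unfolded protein response in their promoters, and their sites are shown for genes whose values are given in detail below. The promoter windows were those of RefSeq for GRCm38.p6, from 250 bases before to 50 bases after each transcription start, and 35 of the 42 genes had one. Both strands were searched for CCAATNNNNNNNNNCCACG (ERSE, a site known to be bound by NF-Y together with Atf6 or Xbp1), ATTGGNCCACG (ERSE-II), TGACGTGG (UPRE, known to be bound by Xbp1 and by the Creb3l factors) and TGATGNAA (CARE, known to be bound by Atf4), where N stands for any base. The reverse complement of the UPRE begins with CCACG, which is also the second part of the ERSE. ERSE was found in 8 of the 35 genes (22.9%) and in 0.119% of all 32851 windows. ERSE-II was found in 2 (5.71%, against 0.0365%), UPRE in 3 (8.57%, against 0.676%) and CARE in 2 (5.71%, against 3.97%). A gene counted if any window of it held the motif, while the background is a share of single windows, so the units differ. A match is a run of letters and not evidence of binding. The UPRE genes were Kdelr3, Sec23a and Sec24d, of ER exit and retrieval. Their sites are printed 5′ to 3′ in the direction of the gene with the motif in capitals, from chr15:79516358-79516405 (plus strand), chr12:59011993-59012022 (minus strand) and chr3:123267459-123267488 (plus strand). In Kdelr3 the motif lies on the opposite strand.
Kdelr3: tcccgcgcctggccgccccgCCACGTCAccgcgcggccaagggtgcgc
Sec23a: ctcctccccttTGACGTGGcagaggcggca
Sec24d: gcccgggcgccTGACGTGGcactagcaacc

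The ERSE genes were Hspa5, Hsp90b1, Creld2, Dnajc3, Calr, Canx, Pdia6 and Syvn1, and the ERSE-II genes were Herpud1 and Dnajb11. Of these, 4 are printed in the same way because their values in single libraries are given below, for Pdia6 in the bleo groups only. They are from chr2:34772020-34772048 (plus strand), chr15:88819500-88819558 (plus strand, motif on the opposite strand), chr12:17266471-17266529 (plus strand) and chr8:94386357-94386407 (plus strand). Sites within an annotated exon are shown with fewer flanking bases.
Hspa5: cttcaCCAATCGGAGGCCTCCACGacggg
Creld2: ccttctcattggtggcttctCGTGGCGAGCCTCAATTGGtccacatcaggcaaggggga
Pdia6: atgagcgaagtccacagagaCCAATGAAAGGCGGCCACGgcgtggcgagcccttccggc
Herpud1: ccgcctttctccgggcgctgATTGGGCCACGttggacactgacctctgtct

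**Figure D1:**
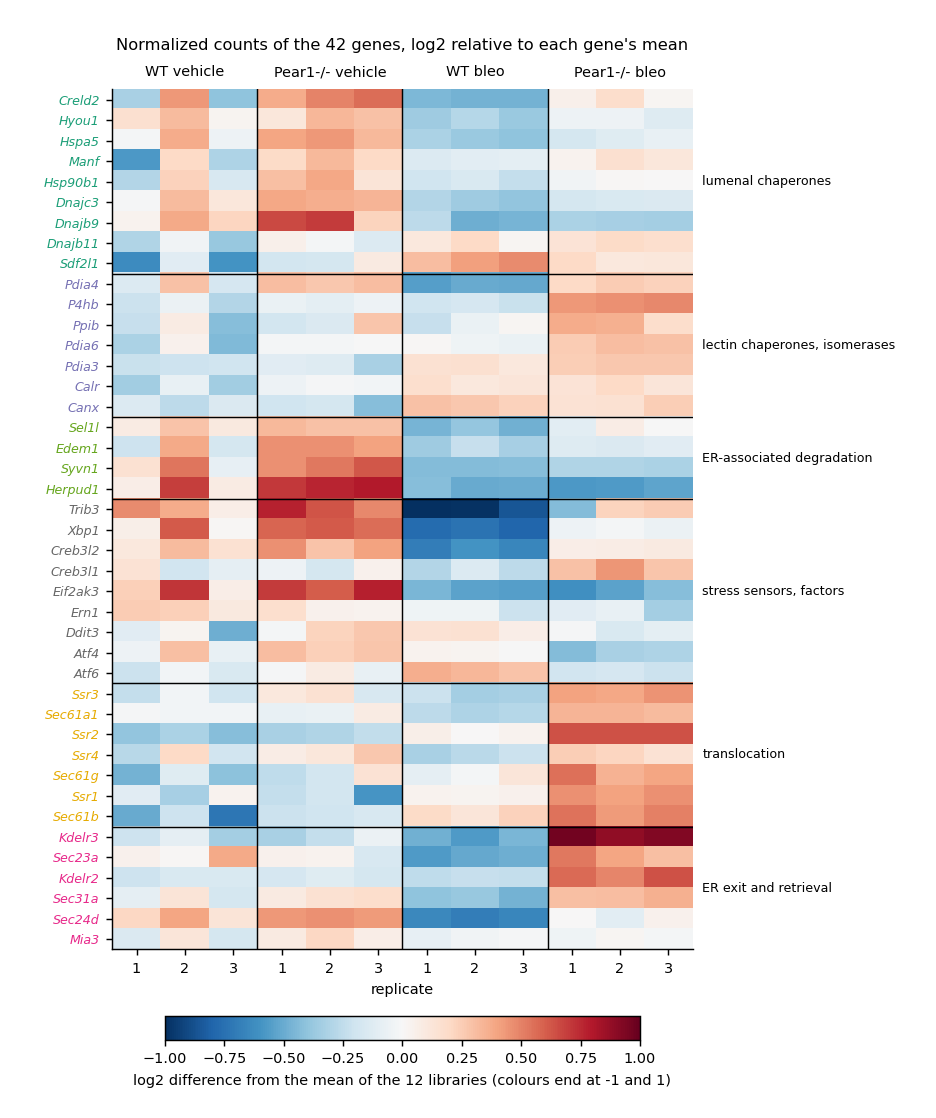
Heat map of the 42 genes (rows, by role and ordered by the difference between the bleo groups) in the 12 libraries (columns, by group and replicate). Colour gives the log2 normalized count relative to the mean of the gene over the 12 libraries, from -1 to 1. Kdelr3, Sec23a, Kdelr2 and the 7 translocation genes are red in the 3 Pear1-/- bleo libraries, while Herpud1 and Eif2ak3 are dark red in Pear1-/- vehicle and in WT vehicle replicate 2 and blue in both bleo groups.

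The comparison of Pear1-/- bleo with WT bleo addressed how the loss of Pear1 bears on the injured lung. Of the 42 genes, 24 (57.1%) were higher and 2 (4.76%) were lower in Pear1-/- bleo at an adjusted p under 0.05 in edgeR's quasi-likelihood test with Benjamini-Hochberg adjustment, where over all 17418 genes tested 22.1% were higher and 23.9% were lower. The median log2 fold change was 0.30 over the 42 genes and -0.01 over all genes. In 35 of the 42 genes the 3 libraries of 1 group all lay above the 3 of the other, and over all genes this held for 31.3% with Pear1-/- bleo higher and for 31.6% with it lower. Only Kdelr3 was past a fold change of 2, a criterion which 6.26% of all genes met in that direction. By role, 5 of 6 genes of ER exit and retrieval, 7 of 7 of translocation, 4 of 7 lectin chaperones and isomerases, 4 of 9 sensors and factors, 3 of 9 lumenal chaperones and 1 of 4 degradation genes were higher. Of the 26 genes called, 19 kept their call in each of 12 fits that left out 1 library. Without WT vehicle replicate 2, 28 were higher and 4 lower, against 23.3% and 25.9% of all genes then tested.

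Genes of exit from the ER and of retrieval to it had the highest median log2 fold change of the 6 roles, 0.76. Kdelr3 (ENSMUSG00000010830, GRCm38 chromosome 15, 79516411 to 79527739, plus strand), a receptor that returns escaped chaperones with a KDEL signal from the Golgi, had 498, 468 and 506 normalized counts in WT bleo and 1356, 1279.9 and 1315 in Pear1-/- bleo. Every Pear1-/- bleo library thus held far more than any WT bleo library, and the vehicle libraries, with 600.3, 650.4 and 547 in WT and 553, 587 and 668 in Pear1-/-, lay between. The log2 fold change was 1.41 ± 0.083 (SE, adjusted p = 3.78e-09). Kdelr2, another KDEL receptor, had 1473, 1492 and 1486 in WT bleo and 2597, 2461 and 2719 in Pear1-/- bleo, a log2 fold change of 0.79 ± 0.063 (SE, adjusted p = 9.18e-08).

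Among the COPII coat genes, Sec23a (ENSMUSG00000020986, GRCm38 chromosome 12, 58958383 to 59012017, minus strand), which encodes a subunit of the inner coat and is known as a target of Creb3l2, had 358, 372 and 379 normalized counts in WT bleo and 766, 698 and 654 in Pear1-/- bleo. The groups did not overlap, and the log2 fold change was 0.92 ± 0.102 (SE, adjusted p = 2.93e-06). Sec31a, a subunit of the outer coat, had 1392, 1419 and 1331 in WT bleo and 2278, 2287 and 2366 in Pear1-/- bleo, again without overlap, and differed by 0.73 ± 0.0767 (SE, adjusted p = 1.75e-06). Sec24d, which encodes the cargo-binding subunit known for its need in procollagen export, had 639, 621 and 638 in WT bleo and 1003, 932 and 1028 in Pear1-/- bleo. It differed by 0.63 ± 0.0752 (SE, adjusted p = 6.5e-06). Mia3, which encodes the receptor Tango1 that loads procollagen into these carriers, had 597, 617 and 628 in WT bleo and 615, 640.4 and 625 in Pear1-/- bleo and did not pass the test, at 0.02 (adjusted p = 0.884). The collagen cargo had larger differences than any of the 42 genes. Col1a1 had 42477, 42433 and 42504 normalized counts in WT bleo and 138603, 144439 and 143477 in Pear1-/- bleo, with a log2 fold change of 1.73 (adjusted p = 6.6e-12), and Col1a2 differed by 1.44 (adjusted p = 2.7e-11).

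**Figure D2:**
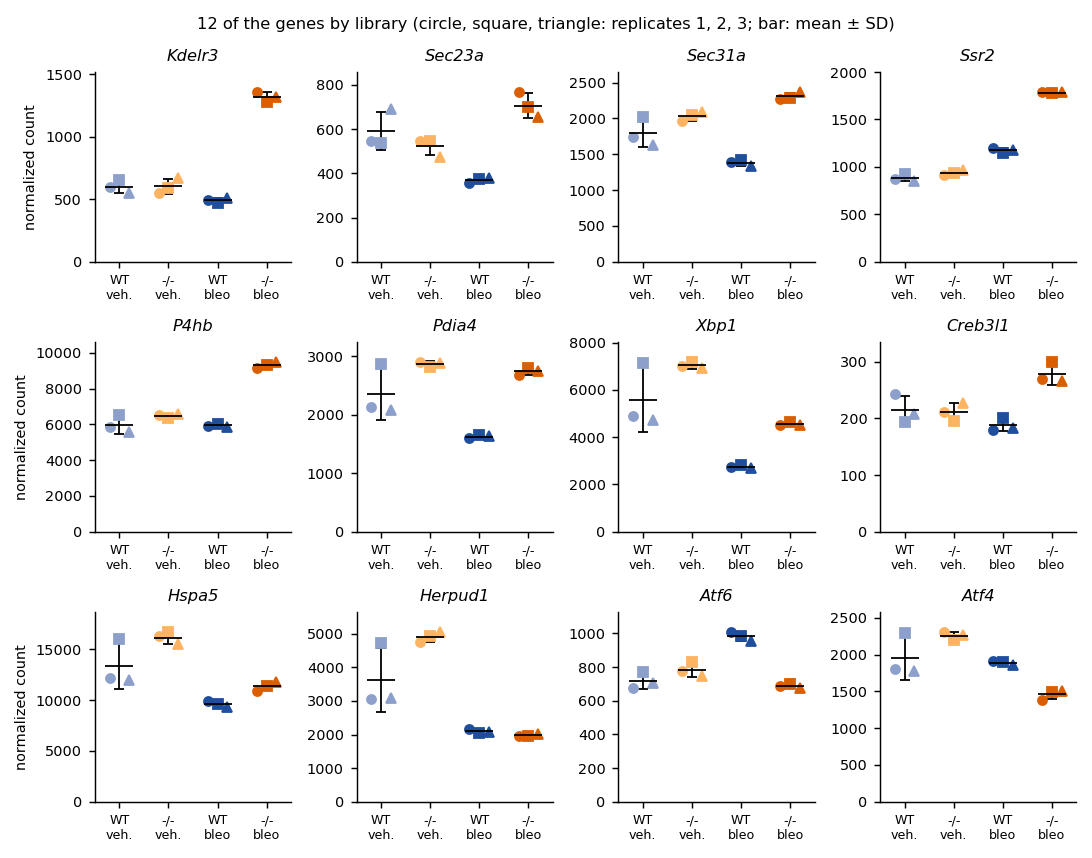
Normalized counts (y axes, from 0) of 12 of the genes in each library, by group (x axes, veh. for vehicle and -/- for libraries labelled Pear1-/-), with the mean and SD of 3 libraries. Kdelr3 sits at 1279.9 to 1356 in Pear1-/- bleo and at 468 to 668 in all other libraries, and for Xbp1, Hspa5 and Herpud1 the square of WT vehicle (replicate 2) sits at the level of Pear1-/- vehicle.

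All 7 genes of translocation were higher in Pear1-/- bleo. Ssr3, a subunit of the TRAP complex that sits beside the Sec61 channel, had 2320.0, 2121 and 2152 normalized counts in WT bleo and 3553, 3511 and 3666 in Pear1-/- bleo, a log2 fold change of 0.69 ± 0.0847 (SE, adjusted p = 8.68e-06). Ssr2 had 1197, 1148 and 1174 in WT bleo and 1787, 1780.2 and 1784 in Pear1-/- bleo, a difference of 0.59 ± 0.0617 (SE, adjusted p = 1.63e-06). The channel subunit Sec61a1 had 2356, 2275 and 2315 in WT bleo and 3566, 3566 and 3522 in Pear1-/- bleo, a difference of 0.60 ± 0.0631 (SE, adjusted p = 1.63e-06). In each of these the groups lay well apart compared with the spread within them. Ssr4, also of TRAP, had 1011, 1050.4 and 1092 in WT bleo and 1502, 1468 and 1397 in Pear1-/- bleo, a difference of 0.46 ± 0.103 (SE, adjusted p = 0.00201). The other subunits were at 0.41 (adjusted p = 0.00641) for Sec61g, 0.39 (adjusted p = 0.00578) for Ssr1 and 0.30 (adjusted p = 0.0202) for Sec61b. Sec61b and Sec61g lost their call in 9 and 3 of the 12 fits that left out a library, with an adjusted p of up to 0.16 for Sec61b without WT bleo replicate 2 and of up to 0.0749 for Sec61g without Pear1-/- bleo replicate 1. Of the 31-base stretches of their transcripts, 19.5% and 21.3% also occur in other genes of the annotation, so that their counts are less certain. The same share was 15.7% for Sec61a1 and 37.3% for Ppib, described next.

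Among the lectin chaperones and isomerases, 4 genes were higher and none was lower. Pdia4 (ENSMUSG00000025823, GRCm38 chromosome 6, 47796141 to 47813430, minus strand) had 1594, 1646 and 1639 normalized counts in WT bleo and 2683, 2791 and 2743 in Pear1-/- bleo, a log2 fold change of 0.74 ± 0.0969 (SE, adjusted p = 1.66e-05). P4hb (ENSMUSG00000025130, GRCm38 chromosome 11, 120560298 to 120573253, minus strand), which encodes protein disulfide isomerase and at the same time the beta subunit of collagen prolyl 4-hydroxylase, had 5926, 6045 and 5842 in WT bleo and 9169, 9341 and 9469.9 in Pear1-/- bleo. It differed by 0.64 ± 0.0621 (SE, adjusted p = 7.78e-07), and no library outside Pear1-/- bleo exceeded 6583. Pdia6, another disulfide isomerase, had 2866, 2772 and 2715 in WT bleo and 3395, 3530.3 and 3495 in Pear1-/- bleo and differed by 0.31 ± 0.0933 (SE, adjusted p = 0.0141). Ppib, the prolyl isomerase that acts on procollagen, had 368, 413 and 439 in WT bleo and 559, 554 and 489.9 in Pear1-/- bleo and differed by 0.38 ± 0.132 (SE, adjusted p = 0.0271). In both the groups did not overlap, but both lost their call in 8 of the 12 fits that left out a library, with adjusted p of up to 0.115 for Pdia6 without WT bleo replicate 3 and 0.177 for Ppib without WT bleo replicate 1. Part of the Ppib exons (25% of bases) overlap Snx22 on the opposite strand, and whether counting used strand was not given in the sources used here. Pdia3, the gene of this role with the highest mean over the 12 libraries, had 8679, 8753 and 8408 in WT bleo and 9261, 9419 and 9433 in Pear1-/- bleo, and its difference of 0.11 (adjusted p = 0.16) did not pass. The lectin chaperones Calr and Canx, for which Pdia3 is the partner enzyme, did not pass either, with 0.01 (adjusted p = 0.92) and -0.10 (adjusted p = 0.307).

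Of the 9 lumenal chaperones and cofactors 3 were higher, with a median log2 fold change of 0.18 over the 9. Hspa5 (ENSMUSG00000026864, GRCm38 chromosome 2, 34771970 to 34777547, plus strand), which encodes BiP, the central Hsp70 of the ER and the most used readout of ER stress, had 9907, 9575 and 9349 normalized counts in WT bleo and 10928, 11369 and 11728 in Pear1-/- bleo. The groups did not overlap but lay close, with a log2 fold change of 0.23 ± 0.0865 (SE, adjusted p = 0.044). Creld2, a stress-induced lumenal protein, had 636, 624 and 626 in WT bleo and 899, 982 and 882 in Pear1-/- bleo, a difference of 0.54 ± 0.157 (SE, adjusted p = 0.0109). Hyou1, which exchanges the nucleotide of BiP, had 343, 361 and 340.2 in WT bleo and 424, 423 and 401 in Pear1-/- bleo and differed by 0.25 ± 0.0848 (SE, adjusted p = 0.0274). None of these 3 calls held in every fit that left out a library. Hspa5 and Hyou1 each lost theirs in 9 of 12, with adjusted p of up to 0.227 and 0.164 without WT bleo replicate 3, and Creld2 in 4, with up to 0.0767 without Pear1-/- bleo replicate 2. The remaining 6 did not pass, with log2 fold changes between -0.27 for Sdf2l1 and 0.20 for Manf. They included Hsp90b1 (Grp94), at 0.18 (adjusted p = 0.177), and the BiP partners of the J-domain family Dnajb9, Dnajb11 and Dnajc3, at 0.06, 0.04 and 0.17.

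Of the 4 genes of ER-associated degradation, which pulls misfolded proteins out of the ER, Sel1l was higher. This scaffold of the Hrd1 ligase had 1054, 1109.5 and 1042 normalized counts in WT bleo and 1351, 1533 and 1449 in Pear1-/- bleo, a log2 fold change of 0.42 ± 0.0735 (SE, adjusted p = 0.000241). The ligase itself, Syvn1, was at 0.11 (adjusted p = 0.446) and the mannosidase-like Edem1 at 0.17 (adjusted p = 0.261). Herpud1 (ENSMUSG00000031770, GRCm38 chromosome 8, 94386438 to 94395377, plus strand), a strongly stress-induced component of the same complex, had 2167, 2056 and 2070.3 in WT bleo and 1955, 1968 and 2023 in Pear1-/- bleo, at -0.09 (adjusted p = 0.556). Herpud1 thus differed in the other direction from Sel1l, without passing the test.

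Of the 9 sensors and factors, 4 were higher and 2 lower. Xbp1 (ENSMUSG00000020484, GRCm38 chromosome 11, 5520659 to 5525893, plus strand), the factor spliced by Ire1, had 2745, 2803 and 2699 normalized counts in WT bleo and 4517, 4637 and 4501 in Pear1-/- bleo, a log2 fold change of 0.71 ± 0.114 (SE, adjusted p = 0.00011). Creb3l2, an ER-anchored factor known from cartilage for the control of secretory genes, had 471, 505 and 486 in WT bleo and 799, 803 and 810.2 in Pear1-/- bleo, a difference of 0.71 ± 0.0739 (SE, adjusted p = 1.59e-06). Its relative Creb3l1, known for activating type I collagen genes in bone, had 180.0, 199.9 and 183 in WT bleo and 269, 299 and 266 in Pear1-/- bleo, a difference of 0.56 ± 0.0999 (SE, adjusted p = 0.000315). All 3 factors were higher in every Pear1-/- bleo library than in any WT bleo library. Trib3, a pseudokinase induced by Atf4 and Ddit3, was scarce, with 19.3, 19.4 and 21.3 in WT bleo and 28.4, 44.7 and 45.8 in Pear1-/- bleo, and differed by 0.97 ± 0.232 (SE, adjusted p = 0.00309). Against these, Atf6 (ENSMUSG00000026663, GRCm38 chromosome 1, 170704674 to 170867771, minus strand) had 1008, 986 and 957 in WT bleo and 685, 698 and 676 in Pear1-/- bleo, and was lower, with a log2 fold change of -0.53 ± 0.068 (SE, adjusted p = 1.3e-05). Atf4 had 1914, 1895 and 1858 in WT bleo and 1382, 1491 and 1502 in Pear1-/- bleo and was lower too, at -0.39 ± 0.0877 (SE, adjusted p = 0.0021). The sensor genes Ern1 and Eif2ak3 and the proapoptotic factor Ddit3 (Chop) did not pass, with -0.08 (adjusted p = 0.496), -0.02 (adjusted p = 0.928) and -0.22 (adjusted p = 0.12). Counts of RNA show neither the splicing of Xbp1, the cleavage of Atf6 nor the translation of Atf4, by which these factors are known to be regulated.

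**Figure D3:**
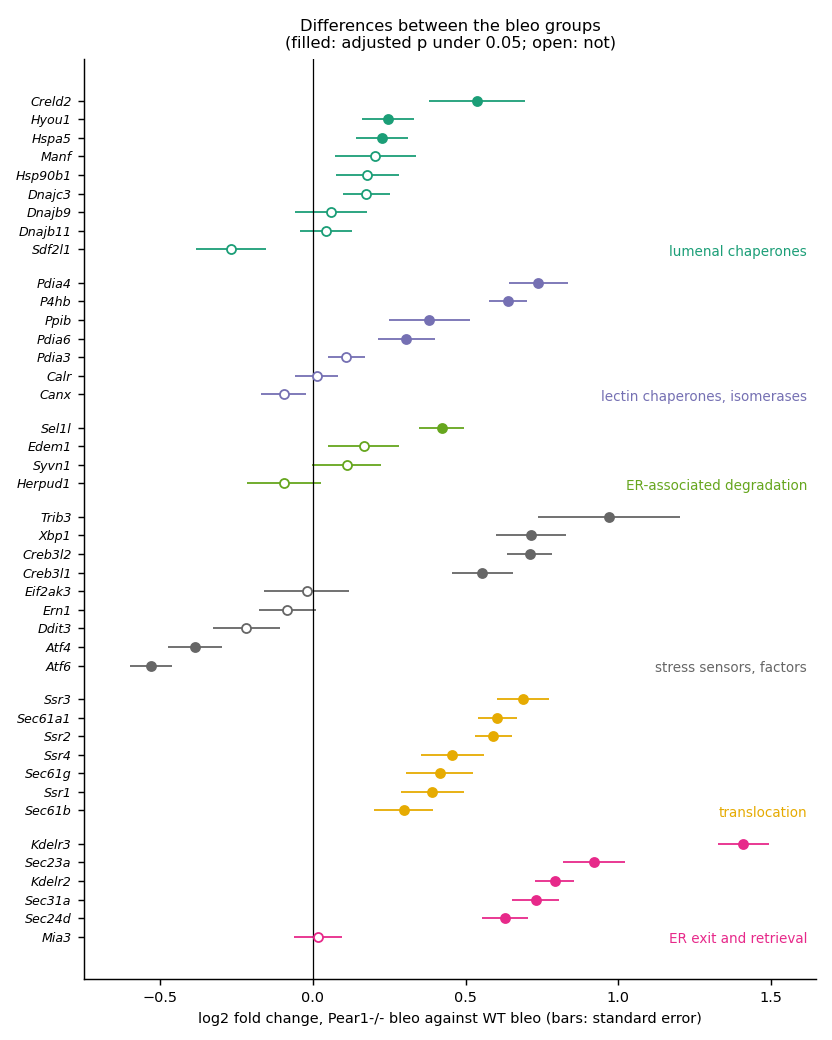
Log2 fold change between Pear1-/- bleo and WT bleo (x axis) for each of the 42 genes (rows, by role), with the standard error as a bar; filled points had an adjusted p under 0.05. Kdelr3 lies at 1.41, all 7 translocation genes lie above 0 and are filled, and Atf4 and Atf6 are the filled points below 0.

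By promoter motif, the 3 UPRE genes were all higher, with log2 fold changes from 0.63 to 1.41. Of the 10 genes with ERSE or ERSE-II, 3 were higher and 7 did not pass, with a median of 0.14 and a range from -0.10 to 0.54. Among the 21 genes whose window held none of the 4 motifs, 12 were higher and 1 was lower, with a median of 0.38. Of the 7 genes without a promoter entry 5 were higher and 1 was lower, with a median of 0.56, and Trib3, with CARE alone, was higher at 0.97. Over all genes tested 22.1% were higher and 23.9% lower, and the share of genes with ERSE or ERSE-II called higher was near that background. The motifs were searched with these fold changes known, and the classes were not tested against each other.

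Markers of other cells differed between the bleo groups together with these genes. Of the 14 leukocyte markers, 13 were lower and none was higher in Pear1-/- bleo, with a median log2 fold change of -1.21, and of the 10 plasma cell markers 8 were higher, with a median of 1.44. Among the 8 fibroblast markers 6 were higher and 1 was lower, and their summed counts were between 1.22% and 1.23% of all counts in WT bleo and between 3.22% and 3.3% in Pear1-/- bleo. Col1a1 and Col1a2, the cargo given above, are among these 8 and made up most of the sum. Their means were 42471 and 23269 normalized counts of 108600 in WT bleo, and 142173 and 63672 of 292600 in Pear1-/- bleo. All 5 markers of activated fibroblasts were higher. Of 6 endothelial markers 1 was higher and 2 were lower, and of 7 epithelial markers 1 was higher and 4 were lower. Plasma cells are themselves known for high Xbp1 and a large ER. The part of these cells in the differences of the 42 genes was not tested.

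**Figure D4:**
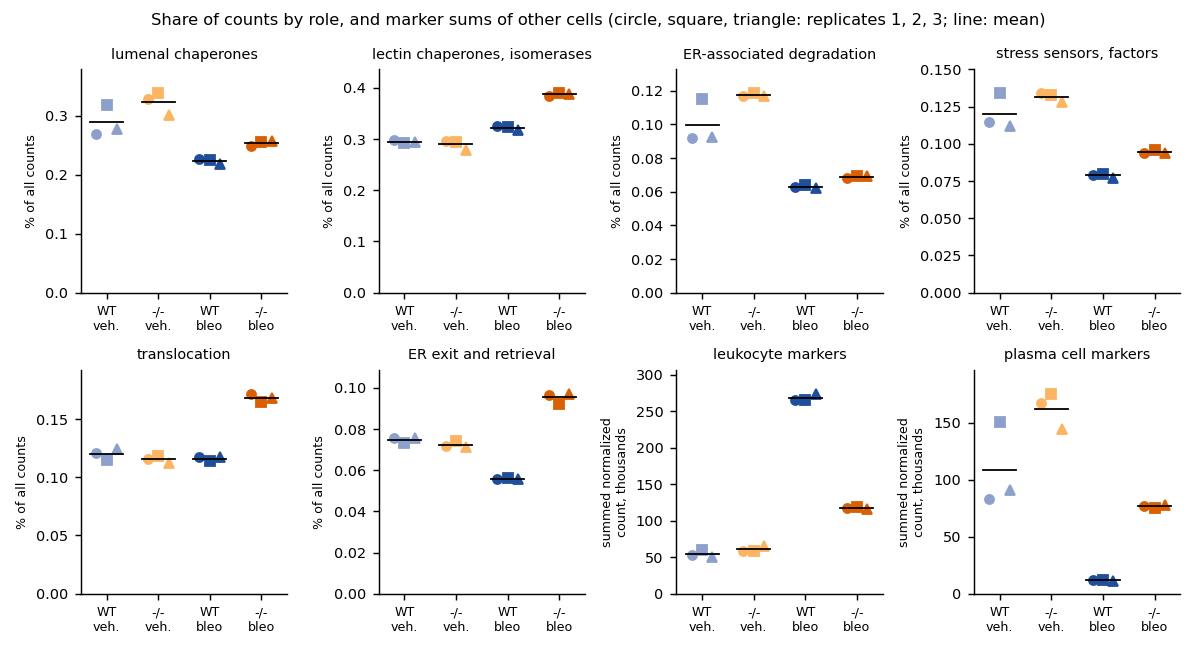
Share of all counts taken by the genes of each role (% of all counts, first 6 panels) and summed normalized counts of 14 leukocyte and 10 plasma cell markers (in units of 1000, last 2 panels) in each library, by group (veh. for vehicle, -/- for libraries labelled Pear1-/-), with the mean as a line. The shares of translocation and ER exit genes are highest in Pear1-/- bleo, while the leukocyte sum is highest in WT bleo and the plasma cell sum lowest there.

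Other genes of the same pathways were counted from lists that had been written with earlier results of these data known. Of 28 other genes of targeting, translocation, signal peptidase and oligosaccharyltransferase, 21 were higher and 2 lower in Pear1-/- bleo, with a median log2 fold change of 0.34. The shares over all genes, 22.1% higher and 23.9% lower, are the background for this and the next 5 lists. Srpr, the receptor of the signal recognition particle, had a mean of 1904 against 1182 normalized counts (Pear1-/- bleo against WT bleo) and differed by 0.68 (adjusted p = 1.45e-06). Sec61a2, an alternative channel subunit, differed by 0.84 (adjusted p = 3.98e-05) and the translocation-associated Tram2 by 0.62 (adjusted p = 0.00052). Of 33 other genes of COPII and COPI coats, cargo receptors and retrieval, 22 were higher and 4 lower, with a median of 0.37. Those named by the rule were Klhl12, an adaptor of the ligase known to enlarge COPII carriers for procollagen, at 0.91 (adjusted p = 0.000144), the COPI subunit Copz2 at 0.90 (adjusted p = 5.44e-08), and the cargo receptor Lman1 at 0.81 (adjusted p = 1.73e-06).

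Of 29 other foldases and quality control genes, 13 were higher and 6 lower, with a median of 0.18. Pdia5 had a mean of 365 against 138 normalized counts in the same order and differed by 1.39 (adjusted p = 4.67e-08), Txndc5, another disulfide isomerase, by 1.34 (adjusted p = 4.59e-08), and the glucosidase Mogs by -1.27 (adjusted p = 1.2e-05). Of 21 other degradation genes 10 were higher and 3 lower, with a median of 0.12. Erlec1, a lectin that recognises misfolded glycoproteins, differed by 2.29 (adjusted p = 1.27e-07), Derl3 by 2.02 (adjusted p = 0.000169) and Edem3 by 0.69 (adjusted p = 4.08e-05), and Derl3 is also among the plasma cell markers. Of 22 targets of the integrated stress response 7 were higher and 6 lower, shares near that background, with a median of 0.14. Cebpb differed by -1.89 (adjusted p = 9.83e-09), the asparagine synthetase Asns by 1.82 (adjusted p = 1.69e-07) and Ddit4 by 1.75 (adjusted p = 6.69e-07). Of 12 other sensors and relatives 2 were higher, among them the Creb3l relative Creb3 at 0.46 (adjusted p = 0.000955) and the protease Mbtps1, which cleaves Atf6, at 0.41 (adjusted p = 0.000247). In this list 1 was lower, Ppp1r15b, a subunit of the phosphatase of eIF2alpha, at -0.44 (adjusted p = 0.000287).

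The comparisons of bleo with vehicle asked how injury itself moved these genes in each genotype as labelled. In WT, 10 genes (23.8%) were higher and 20 (47.6%) lower with bleo, against 31.4% and 36.6% of all genes tested, and the median log2 fold change was -0.18. In the libraries labelled Pear1-/-, 17 (40.5%) were higher and 18 (42.9%) lower, against 28.9% and 33.4%, with a median of -0.10. Without Pear1-/- vehicle replicate 3 they were 14 and 17, against 53.3% of all genes called in either direction in that fit. Whether these medians lay above or below those of all genes changed with the fit, so no contrast is drawn from them. Markers of other cells moved as well. From vehicle to bleo the mean summed normalized counts of the epithelial markers went from 44360 to 14340 in WT and from 56160 to 6434 in Pear1-/-, those of the endothelial markers from 3610 to 2107 and from 4026 to 2075, and those of the activated fibroblast markers from 4919 to 34570 and from 4717 to 107000. Of the 7 epithelial markers 2 were higher with bleo in WT and 1 in Pear1-/-, and 5 and 6 were lower. Scgb1a1, at up to 36810 normalized counts, and Sftpc, at up to 19430, carried most of that sum. Of the 5 activated fibroblast markers 4 were higher and 1 lower in WT, and 5 were higher in Pear1-/-. Spp1 reached 89370 and the next, Acta2, 7846, so that the highest sums of this list were mainly Spp1. The leukocyte sum was higher and the plasma cell sum lower with bleo in both genotypes, although 2 of the 10 plasma cell markers were higher and 6 lower in Pear1-/-. The part of these cells in the counts below was not tested. Lower in both genotypes were 15 genes (35.7%, against 24.3% of all genes), and higher in both were 6 (14.3%, against 19.3%).

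The 4 degradation genes and several chaperones were lower with bleo in both genotypes, although Edem1 lost its call in WT in 10 of 12 fits that left out a library and was at -0.04 (adjusted p = 0.531) without WT vehicle replicate 2. Herpud1 had 3057, 4716 and 3092 normalized counts in WT vehicle and 4761, 4937 and 5048 in Pear1-/- vehicle, and between 1955 and 2167 in the bleo libraries. Its log2 fold change with bleo was -0.78 ± 0.123 (SE, adjusted p = 5.05e-05) in WT and -1.31 ± 0.124 (SE, adjusted p = 3.24e-07) in Pear1-/-. Eif2ak3, which encodes Perk, had 281, 393 and 251 in WT vehicle and 174, 165 and 163 in WT bleo, a change of -0.87 (adjusted p = 3.47e-05), and changed by -1.21 (adjusted p = 1.14e-06) in Pear1-/-. Xbp1 had 4879, 7159.7 and 4733 in WT vehicle and 7032, 7171 and 6907 in Pear1-/- vehicle, and was lower with bleo, at -1.01 (adjusted p = 1.71e-06) in WT and -0.62 (adjusted p = 0.000226) in Pear1-/-. Hspa5 had 12175, 15959 and 11922 in WT vehicle and 16276, 16672 and 15499 in Pear1-/- vehicle, and its changes were -0.46 (adjusted p = 0.000237) and -0.51 (adjusted p = 0.000132). Dnajb9 (at -0.61 in WT and -0.87 in Pear1-/-), Dnajc3 (-0.48 and -0.52), Syvn1 (-0.64 and -0.84) and Sel1l (-0.59 and -0.31) passed the test in both as well. Without WT vehicle replicate 2 the changes in WT were smaller, at -0.29 for Pdia4 (from -0.52), -0.25 for Hspa5, -0.48 for Herpud1, -0.39 for Syvn1, -0.59 for Eif2ak3 and -0.73 for Xbp1, and each still passed. The sums of the plasma cell markers were lower in both bleo groups than in the vehicle groups, and their part in these changes was not tested.

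Higher with bleo in both genotypes were Sec61b (0.65 in WT and 0.69 in Pear1-/-), Ssr2 (0.42 and 0.93), Sec61g (0.34 and 0.53), Canx (0.46 and 0.45), Pdia3 (0.36 and 0.45) and Calr (0.39 and 0.19). The call of Calr in Pear1-/- was lost in 9 of the 12 fits that left out a library, with an adjusted p of up to 0.241 without Pear1-/- bleo replicate 2, and was also lost with the replicate block (adjusted p = 0.106) and in limma (0.0788). Sdf2l1, which holds BiP at its client, had 446, 635 and 454 normalized counts in WT vehicle and 854, 914 and 955 in WT bleo. It was the gene with the largest rise in WT, at 0.83 ± 0.117 (SE, adjusted p = 1.6e-05), and was at 0.23 (adjusted p = 0.0939) in Pear1-/-. Without WT vehicle replicate 2, 16 genes were higher and 16 lower in WT, against 31.7% and 44.7% of the 20405 genes then tested. Creld2, Edem1, Ern1 and Kdelr3 then lost their calls in WT, with Creld2 at -0.03 (adjusted p = 0.758), Edem1 as given above, Ern1 at -0.20 (adjusted p = 0.0943) and Kdelr3 at -0.15 (adjusted p = 0.0929). Ddit3 moved from 0.31 to 0.49 and Sec61g from 0.34 to 0.52. Atf4 turned from -0.04 (adjusted p = 0.693) to 0.16 (adjusted p = 0.0135). Over the 12 fits that left out 1 library, Creld2 and Edem1 each lost their call in WT in 10, Ern1 and Kdelr3 each in 5, Ddit3 in 3 (adjusted p up to 0.132 without WT vehicle replicate 3), Sec61g in 2 (up to 0.0646 without WT vehicle replicate 1) and Sec61a1 in 1. In Pear1-/-, 26 of 35 calls held in every such fit, and the largest adjusted p among the others was 0.289, for Ppib without Pear1-/- vehicle replicate 1.

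The interaction of genotype and bleo tests whether the change with bleo differed between the genotypes as labelled. It was above 0 in 14 genes (33.3%) and below 0 in 5 (11.9%) at an adjusted p under 0.05, against 17.9% and 19.1% of all genes, with a median of 0.09. Kdelr3 was -0.28 (adjusted p = 0.00888) with bleo in WT and 1.13 (adjusted p = 1.58e-08) in Pear1-/-, an interaction of 1.41 ± 0.117 (SE, adjusted p = 5e-07) on the log2 scale. For Sec23a the changes were -0.66 (adjusted p = 4.23e-05) and 0.44 (adjusted p = 0.00138), an interaction of 1.10 ± 0.144 (SE, adjusted p = 3.16e-05). Both genes thus fell in WT and rose in Pear1-/-, as did Sec31a and Sec61a1. Sec31a was at -0.37 (adjusted p = 0.000577) in WT (-0.21 without WT vehicle replicate 2) and 0.19 (adjusted p = 0.0408) in Pear1-/-, and Sec61a1 at -0.25 (adjusted p = 0.00232) and 0.35 (adjusted p = 0.00018). The rise of Sec31a in Pear1-/- lost its call in 9 of 12 fits that left out a library, with an adjusted p of up to 0.274 without Pear1-/- vehicle replicate 1, and the falls of Kdelr3 and Sec61a1 in WT in 5 and 1, with up to 0.131 and 0.0598 without WT bleo replicate 2. P4hb did not pass in WT, at 0.00 (adjusted p = 0.995), and rose in Pear1-/- by 0.53 (adjusted p = 3.12e-06). Without WT vehicle replicate 2 P4hb passed in WT too, at 0.13 (adjusted p = 0.0123), against 0.51 in Pear1-/-. In the other direction, Atf6 rose in WT by 0.47 (adjusted p = 2.35e-05) and fell in Pear1-/-, at -0.19 (adjusted p = 0.0258), a call lost in 8 of those fits (adjusted p up to 0.141 without Pear1-/- vehicle replicate 2), with an interaction of -0.66 ± 0.0967 (SE, adjusted p = 9.88e-05). Atf4, Ddit3, Sdf2l1 and Herpud1 also had interactions below 0.

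**Figure D5:**
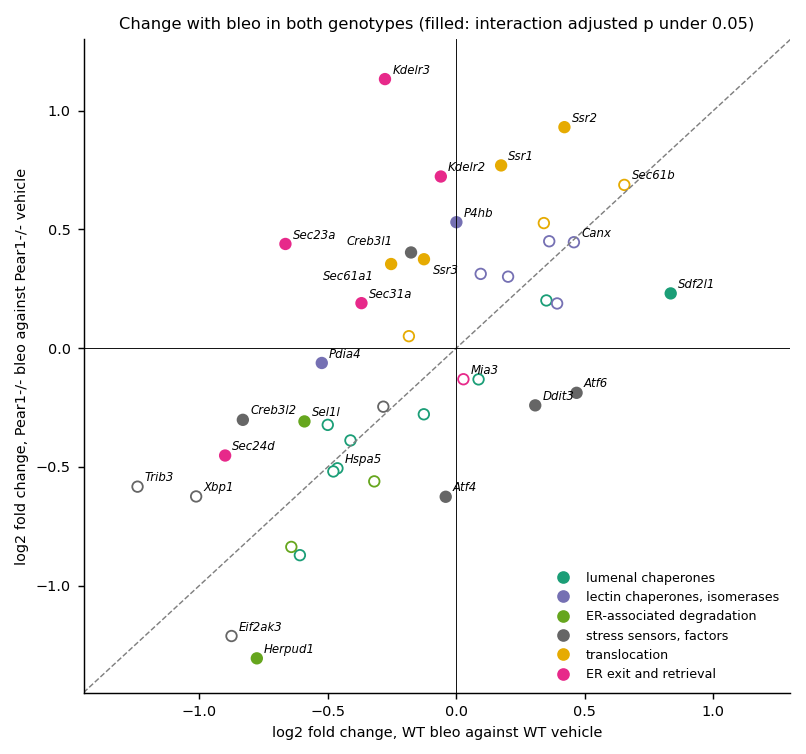
Log2 fold change with bleo in WT (x axis) and in libraries labelled Pear1-/- (y axis) for each of the 42 genes, coloured by role; the dashed line marks equal change and filled points had an interaction with an adjusted p under 0.05. Kdelr3 and Sec23a lie far above the line in the upper left, Herpud1 and Eif2ak3 lie lowest on the y axis, and Atf6, Ddit3, Atf4 and Sdf2l1 lie below the line.

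Leaving out WT vehicle replicate 2 raised the number of interactions called from 19 to 30, with 13 above 0 and 17 below 0, against 20.4% and 26.0% of all genes in that fit, and moved the median to -0.03. The 6 genes of exit and retrieval and 4 of the 7 translocation genes kept the sign of their interaction, with 1.26 (adjusted p = 3.65e-14) for Kdelr3, 1.09 (adjusted p = 7.63e-11) for Sec23a, 0.69 (adjusted p = 3.2e-10) for Kdelr2, 0.53 (adjusted p = 8.95e-08) for Sec61a1 and 0.60 (adjusted p = 5.97e-07) for Ssr1. Mia3, the 1 exit gene with an interaction below 0, went from -0.16, not called, to -0.34 (adjusted p = 0.00296). The other 3 translocation genes, not called in either fit, turned from 0.03 to -0.20 for Sec61b, from 0.19 to -0.0085 for Sec61g and from 0.23 to -0.0058 for Ssr4. Of the 17 genes then called below 0, 12 had not been called before, among them Edem1 (-0.54, adjusted p = 5.16e-08), Manf (-0.55, adjusted p = 1.71e-05), Eif2ak3 (-0.64, adjusted p = 0.000157), Hsp90b1 (-0.40, adjusted p = 1.89e-05), Calr (-0.38, adjusted p = 6.44e-06) and Hspa5 (-0.27, adjusted p = 0.000317). A value below 0 was a larger fall in Pear1-/- for some of these, such as Hspa5 (-0.25 in WT and -0.52 in Pear1-/-), and a smaller rise for others, such as Calr (0.55 and 0.17). Of the 19 interactions, 14 kept their call in each of the 12 fits that left out a library, and 5 did not. Their adjusted p reached 0.116 for Pdia4, 0.0666 for Herpud1 (both without WT bleo replicate 1), 0.359 for Sel1l (without Pear1-/- bleo replicate 2), 0.0646 for Sec24d (without Pear1-/- bleo replicate 3) and 0.0503 for Ssr3 (without WT bleo replicate 2).

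Between the vehicle groups none of the 42 genes passed the test in either direction in edgeR, against 0.855% of all genes higher and 3.65% lower in Pear1-/- vehicle. At an unadjusted p under 0.05 there were 25, against 31.6% of all genes. DESeq2's Wald test called 3 (against 3.78% of all genes in that fit), edgeR without the filter on low counts 21 (against 13.8%) and edgeR with the replicate block 7 (against 10.3%), all higher. The median log2 fold change was 0.20, and 36 of the 42 lay above 0. The WT vehicle libraries were uneven, in that replicate 2 had a median log2 deviation of 0.09 from the mean of the vehicle libraries, and replicates 1 and 3 had -0.17 and -0.21. The 3 Pear1-/- vehicle libraries had 0.09, 0.11 and 0.10, the level of WT vehicle replicate 2. Creld2 shows the pattern, with 692, 1175 and 658 normalized counts in WT vehicle and 1121, 1226 and 1280.1 in Pear1-/- vehicle, as do Herpud1 and Xbp1 above and Edem1, with 1928, 2899 and 1978 in WT vehicle and 3057, 3060.4 and 2944 in Pear1-/- vehicle. Without WT vehicle replicate 2, 32 genes were higher and 1 was lower in Pear1-/- vehicle, against 25.5% and 29.7% of all genes tested. Herpud1 was then at 0.74 (adjusted p = 1.21e-15), Creld2 at 0.91 (adjusted p = 3.2e-14) and Xbp1 at 0.62 (adjusted p = 5.67e-14). The plasma cell marker sum in WT vehicle replicate 2 was 1.63% of all counts, against 1.02% and 1.13% in replicates 1 and 3 and between 1.52% and 1.88% in Pear1-/- vehicle. The epithelial sum lay likewise, at 0.6014% against 0.4871% and 0.4701%, and between 0.5654% and 0.6465% in Pear1-/- vehicle. The leukocyte sum was 0.6507% against 0.6468% and 0.6314%. Whether the label of WT vehicle replicate 2 is right was not tested.

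Levels can be compared between genes only per length, here that of all annotated exons of a gene joined, and the order depends on that choice. The longest transcript is shorter for some, at 2129 against 3248 bases for Xbp1 and 2770 against 3139 for Pdia3, and equal for P4hb, at 2861. Per kilobase of exon in the GENCODE M21 annotation, the most abundant of the 42 genes in WT vehicle was Hspa5, with a mean of 3157 normalized counts per kilobase, and the next were Pdia3 (2152), P4hb (2092), Xbp1 (1721) and Herpud1 (1552). In Pear1-/- bleo the order at the top was P4hb (3260.0), Pdia3 (2985), Hspa5 (2682) and Calr (1975), so that P4hb and Pdia3 stood above BiP in that group, while Pdia4 (1142), Pdia6 (928) and Ppib (162) lay below it. In WT bleo Pdia3 (2744) was also above Hspa5 (2273), and P4hb (2075) was not. Trib3, Ern1 and Eif2ak3 were the scarcest, under 70 normalized counts per kilobase in each group mean. Together the 42 genes took 0.97% to 1.05% of all counts in WT vehicle, 1.01% to 1.08% in Pear1-/- vehicle, 0.848% to 0.867% in WT bleo and 1.06% to 1.07% in Pear1-/- bleo.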

How the data were processed

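Cells positive for Cd140a were sorted by the authors and their RNA was amplified with a SMART-Seq kit. Reads were checked with FastQC, per the submitters' processing notes, and aligned by the authors with HISAT2 to GRCm38 (mm10). The counting program and its strand setting were not given in the sources used here. The authors deposited raw counts per gene and normalized counts, a signal that equals the deposited counts divided by a size factor per library. Sequencing of 3 libraries a group gave 6702948 to 10447101 counts each. All fits used the counts of the 12 libraries, in R 4.3.3 with edgeR 4.0.16 (filterByExpr, TMM, quasi-likelihood test, Benjamini-Hochberg adjustment over all genes tested, threshold 0.05), with 4 group means. Values per library are the deposited normalized counts. The scripts were tested on simulated data.

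Alternatives were DESeq2 1.42.0, its size factors in edgeR, no filter, limma 3.58.1 on log2(normalized count + 1), the replicate number as a block, a fold criterion of 2, and leaving out each library. Fits of the 6 bleo or the 6 vehicle libraries alone were added after seeing the data. Named in each role were up to 4 called genes with the largest difference between the bleo groups, the gene with the highest mean, and genes with an interaction above 1 on the log2 scale. Named in each companion list were the 3 called genes with the largest difference. Values of other genes of the 42 were given to account for all, and their choice was made after seeing them. The 42 genes, the lists and the motifs were chosen with earlier results of these data known.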

Additional observations from a re-analysis of the deposited data

Results flagged for a closer look

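The change with bleo differed between the genotypes as labelled in 19 of the 42 genes, by the interaction term of edgeR's quasi-likelihood test with Benjamini-Hochberg adjustment. The values are log2 fold changes of Pear1-/- (bleo against vehicle) minus those of WT. Among the genes of ER exit and retrieval the interaction was 1.41 for Kdelr3, 1.10 for Sec23a, 0.78 for Kdelr2, 0.56 for Sec31a and 0.45 for Sec24d. Among the translocation genes it was 0.61 for Sec61a1, 0.60 for Ssr1, 0.51 for Ssr2 and 0.50 for Ssr3. Among folding and degradation genes it was 0.53 for P4hb, 0.46 for Pdia4, 0.28 for Sel1l, -0.60 for Sdf2l1 and -0.53 for Herpud1. Among the factors it was 0.58 for Creb3l1, 0.53 for Creb3l2, -0.66 for Atf6, -0.58 for Atf4 and -0.55 for Ddit3. Both genotypes' changes enter with WT vehicle replicate 2 included, and 18 of the 19 kept their call without it, Sel1l being the exception at 0.13. Without that library Pdia4 was at 0.21, Sec24d at 0.28 and Herpud1 at -0.85.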

How the results depend on the processing

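Leaving out 1 library at a time gave between 24 and 32 called genes with bleo in WT, 27 to 40 in Pear1-/-, 19 to 32 between the bleo groups, 0 to 33 between the vehicle groups and 14 to 30 for the interaction. The medians ranged from -0.23 to -0.01, -0.130 to -0.0929, 0.27 to 0.30, 0.14 to 0.38 and -0.03 to 0.18 in the same order. WT vehicle replicate 2 gave the 33 and the 30, and without it Atf4 with bleo in WT, not called at -0.04, turned to 0.16. The interaction of Creld2, not called at 0.02, ranged from -0.38 without that library to 0.17 without WT vehicle replicate 3. With a fold criterion of 2, 2 genes were called with bleo in WT, 3 in Pear1-/-, 1 between the bleo groups and 2 for the interaction. Between the vehicle groups DESeq2 called 3 genes, no filter on low counts 21, and the fit with the replicate block 7, where edgeR as reported above, limma, DESeq2 size factors and the vehicle libraries alone called 0. Without the filter the median was -0.0451 with bleo in Pear1-/-, -0.0498 in WT and 0.0163 for the interaction. The cause of these shifts was not tested. The replicate block called 28, 32, 22 and 17 genes in the other 4 comparisons. Same-numbered libraries correlated between -0.161 and 0.0997 in their deviations, so the numbers do not pair them. The median of all genes with bleo in WT, -0.07, was -0.10 with DESeq2 size factors, -0.23 with the replicate block, -1.15 with DESeq2 and -1.48 without the filter, and in Pear1-/-, -0.05, it was -0.06, -0.17, -0.21 and -0.15. The 42 genes' median was below that of all genes in the edgeR fit of all 12 libraries, and higher than it in the last 3 of these. The bleo libraries alone called 36 genes between the bleo groups. Genes with few counts, such as Trib3, are limited by depth, and 3 libraries a group limit the precision of all.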
